A study of Mus musculus with 6 samples.

Results

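Storage fat is held in cytosolic lipid droplets, and 10 mouse genes whose products coat those droplets, bind fatty acids in the cytosol or are secreted by fat cells were followed in beta-actin knockout and wild-type fibroblasts. They are the fatty acid binding protein genes Fabp4, Fabp5 and Fabp3, the perilipin genes Plin1, Plin2, Plin3 and Plin4, the CIDE gene Cidec, and the hormone genes Adipoq and Retn. They were taken by name and are 10 of the 46603 genes in the count tables. Each name matched 1 Ensembl gene.

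The study asked how gene expression differs when fibroblasts without beta-actin are placed under adipogenic conditions. KO denotes 3 RNA sequencing libraries from beta-actin knockout mouse embryonic fibroblasts, and WT denotes 3 from wild-type mouse embryonic fibroblasts. Cells of both genotypes were obtained from another laboratory, are labelled BALB/c and 10.5-day embryo, and had spent 6 days in growth medium to which ascorbic acid, insulin, IBMX and dexamethasone had been added. No library from before induction was analysed, so levels could not be set against the uninduced state. The labels do not say whether replicates came from separate cultures, embryos or clones, so every p-value below measures only the spread between these libraries.

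Perilipins are proteins of the droplet surface that control the access of lipases to stored triglyceride. Plin2 and Plin3 are made by most cells, whereas Plin1 and the droplet-fusion protein encoded by Cidec mark mature fat cells, and Plin4 is most abundant in white fat and muscle, where it binds young droplets. Fabp4 is the main fatty acid carrier of fat cells and macrophages, Fabp5 its epidermal relative, also made by many cultured cells, and Fabp3 the carrier of heart and skeletal muscle. Adipoq encodes adiponectin and Retn encodes resistin, both released by mouse fat cells into the blood.

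Library totals ran from 30240750 to 38619711 counts in KO and from 26955708 to 30235906 in WT. Actb, the deleted gene, had 276, 1988 and 1850 counts in KO replicates 1, 2 and 3, against 60501, 60582 and 53894 in WT replicates 1, 2 and 3. KO replicate 1 stood apart: its log2 levels differed from those of the other KO libraries by a root mean square of 0.763, against 0.332 to 0.495 for each of the other 5 libraries within its own group. All 12 listed fibroblast markers passed the count filter, 9 of them higher in KO and none lower. One defining marker, Thy1, was nearly absent, with 20, 13 and 17 counts in KO and 0, 1 and 0 in WT. Of 14 mature adipocyte markers other than the 10 genes, 6 could be tested, 1 of which was higher in KO and 4 lower, and Lep, for leptin, had 0 counts in every library. The 9 smooth muscle markers summed to between 5420 and 14200 counts per 1000000 (CPM) in KO and between 118 and 175 CPM in WT, and 7 were higher in KO. This was the marker list with the widest gap in summed level between the genotypes. Macrophage markers summed to 25.3 to 37.9 CPM in KO and 19.6 to 37.7 CPM in WT, with the defining Tyrobp and C1qb at 0 throughout; 1 of 5 tested was higher in KO and 1 lower. The one higher was the scavenger receptor gene Msr1, with 89, 122 and 241 counts in KO and 0 in each WT library, at least 46.6-fold higher at 3 counts per library. Endothelial markers summed to 11.4 to 20.2 CPM in KO and 53.3 to 62.0 CPM in WT, with Cldn5 and Gpihbp1 at 0. Of 8 tested, 2 were lower in KO and 0 higher. Epithelial markers summed to 75.8 to 135 CPM in KO and 138 to 192 CPM in WT, but moved both ways: of 7 tested, 3 were higher in KO and 3 lower. Striated muscle markers summed to 30.7 to 49.7 CPM in KO and 14.0 to 21.6 CPM in WT, with 2 of 3 tested higher in KO and 0 lower. Over all tested genes, 13.8% were higher and 14.5% lower in KO. The part of these cell-type markers in the results below was not tested.

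Of the 10 genes, 6 had enough counts to be tested across the 2 genotypes and 4 (Plin1, Cidec, Adipoq and Retn) did not. Plin4 and Fabp5 were higher in KO, none was lower, and Fabp4, Fabp3, Plin2 and Plin3 did not pass the test. The test was edgeR's quasi-likelihood F test on all genes, two-sided, with a call at a Benjamini-Hochberg adjusted p below 0.05. Of all 15009 genes tested, 28.3% were called, 13.8% as higher and 14.5% as lower in KO. Both called genes had CPM ranges that did not overlap between genotypes, as did 49.6% of all tested genes, and the ranges of the other 4 overlapped. The median log2 fold change, KO over WT, was 0.69 over the 6 tested genes and 0.01 over all tested genes. In bulk RNA, a change in the number of cells that express a gene and a change in the RNA of each cell cannot be told apart.

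**Figure D1:**
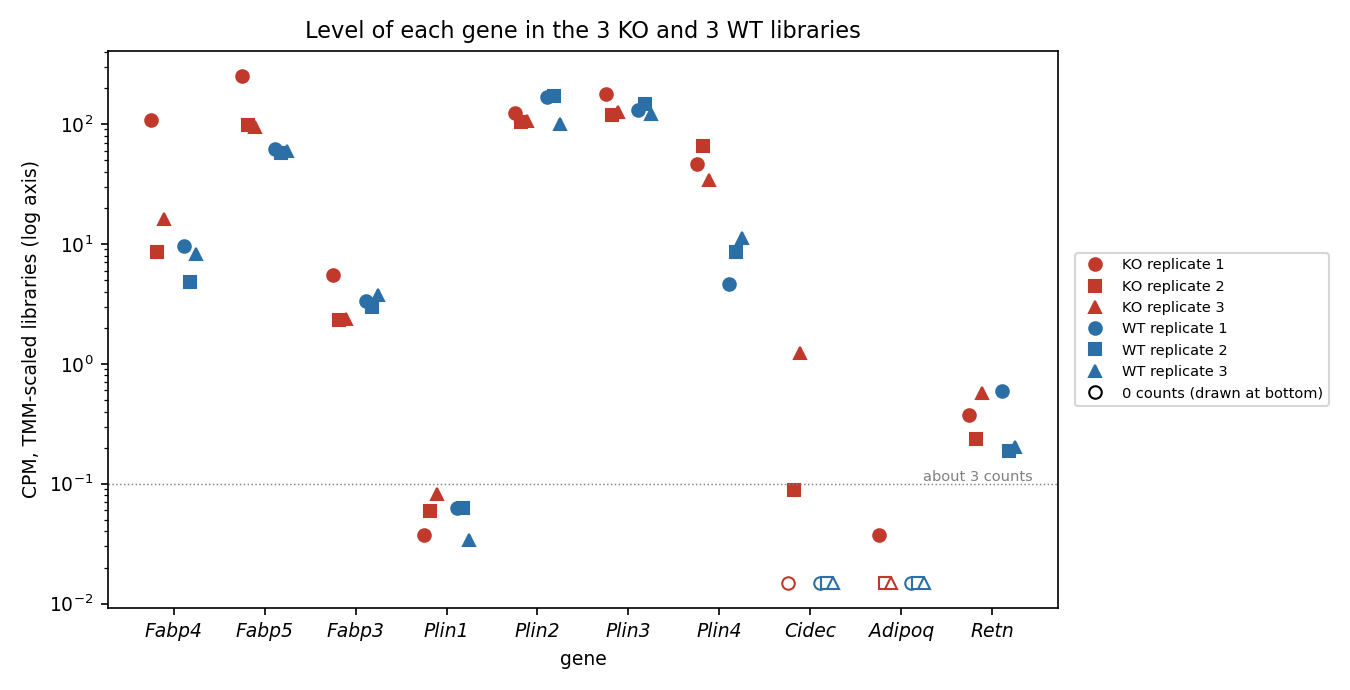
Level of each of the 10 genes in the 3 KO libraries (red, left) and the 3 WT libraries (blue, right), in CPM on a log axis; marker shape gives the replicate number, and open markers at the bottom are libraries with 0 counts. Only Plin4 and Fabp5 separate the genotypes fully among the tested genes, and Fabp4 in KO spans 8.60 to 109 CPM.

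Fabp5 was higher in KO, and all 3 fatty acid binding protein genes were at their highest in KO replicate 1. Fabp5 (ENSMUSG00000027533, chr3:10012548-10016607, plus strand) had 251, 97.6 and 94.4 CPM in KO and 61.5, 57.5 and 59.4 CPM in WT. Every KO library lay above every WT library, with KO replicate 1 far above the other KO libraries and the WT libraries nearly equal. The means were 148 ± 89.8 CPM in KO and 59.5 ± 1.98 CPM in WT (SD, n = 3 each). That is a log2 fold change of 1.31 (SE 0.46, edgeR adjusted p = 0.0334), or 2.48-fold higher in KO. Without KO replicate 1 the log2 fold change was 0.69 and still called (adjusted p = 0.000366). Without WT replicate 1, 2 or 3 it was 1.33, 1.28 and 1.31 and no longer called (edgeR adjusted p = 0.103, 0.111 and 0.109).

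Fabp5 has a near copy elsewhere in the genome that also took counts. Gm6166 is annotated as a processed pseudogene, a retrocopy of a spliced transcript, at chr9:57483963-57484371 on the plus strand. It aligned to the 408-base Fabp5 coding sequence over 409 positions, 402 of them identical (98.3%), with a longest identical run of 179 bases. A stretch that holds 2 of the differences is shown. It spans coding bases 259 to 348, counted from the A of the Fabp5 start codon. The sequences are from the GENCODE M21 transcripts, 5′ to 3′, with the differing bases in capitals.
Fabp5: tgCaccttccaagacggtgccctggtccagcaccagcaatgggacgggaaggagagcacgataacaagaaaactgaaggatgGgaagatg
Gm6166: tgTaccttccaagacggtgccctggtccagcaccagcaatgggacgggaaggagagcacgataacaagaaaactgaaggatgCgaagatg
A read that lies between those capitals carries nothing that assigns it to one locus or the other. Of the 938 windows of 50 bases in the Fabp5 transcript, 198 (21.1%) also occur in another annotated gene. The carriers are 5 processed pseudogenes, and only Gm6166 among them had any counts.

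Gm6166 had 4273, 2077 and 2126 counts in KO and 390, 307 and 266 in WT, set against 6696, 3292 and 3469 Fabp5 counts in KO and 1957, 1831 and 1758 in WT. Its log2 fold change was 3.18 (SE 0.49, edgeR adjusted p = 0.00167), larger than that of Fabp5 itself, and it was 2.53 without KO replicate 1. The count ratio of Gm6166 to Fabp5 was 0.638, 0.631 and 0.613 in KO and 0.199, 0.168 and 0.151 in WT. The ratio was nearly constant within each genotype, at 0.627 ± 0.013 in KO and 0.173 ± 0.0244 in WT (SD, n = 3 each), and the genotypes were far apart. KO replicate 1, which stood apart in level, did not stand apart in this ratio. What gives each genotype its own ratio was not tested. With both loci summed, the level was 241 ± 148 CPM in KO and 69.8 ± 3.51 CPM in WT (SD, n = 3 each), and the log2 fold change was 1.79 (edgeR adjusted p = 0.0114), a check added after the values were seen. The direction was thus the same with and without the Gm6166 counts, and the size was not.

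**Figure D2:**
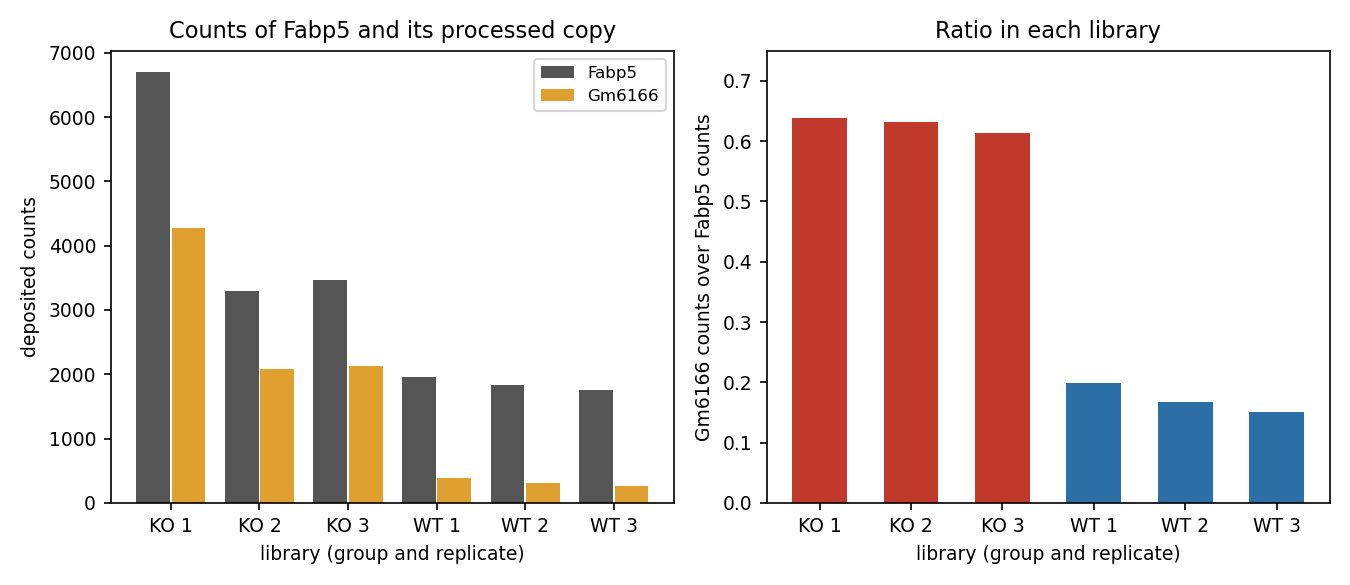
Left, deposited counts of Fabp5 (grey) and of its processed pseudogene Gm6166 (orange) in the 3 KO libraries and the 3 WT libraries; right, the ratio of the Gm6166 count to the Fabp5 count in each library. The ratio lies between 0.613 and 0.638 in KO and between 0.151 and 0.199 in WT.

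Fabp4 (ENSMUSG00000062515, chr3:10204088-10208576, minus strand) had 109, 8.60 and 16.2 CPM in KO and 9.55, 4.78 and 8.31 CPM in WT. KO replicate 1 held 12.7 times the level of KO replicate 2, and KO replicate 2 lay below WT replicate 1, so the genotypes overlapped. The means were 44.8 ± 56.1 CPM in KO and 7.55 ± 2.48 CPM in WT (SD, n = 3 each), with a log2 fold change of 2.56 (SE 1.14, edgeR adjusted p = 0.0686). The estimate rests on KO replicate 1, without which it was 0.72 (edgeR adjusted p = 0.119). The call changed with the method: it was made without a filter on low counts (adjusted p = 0.0127), with DESeq2 (0.0422), and without KO replicate 2 (0.0198) or KO replicate 3 (0.0483). None of the 847 windows of 50 bases in the Fabp4 transcript occurs in another gene.

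Fabp3 (ENSMUSG00000028773, chr4:130308595-130315463, plus strand) had 5.52, 2.31 and 2.37 CPM in KO and 3.33, 2.95 and 3.78 CPM in WT. KO replicate 1 was the highest library and the other KO libraries were the lowest, so the 3 WT libraries lay inside the KO range. Means were 3.40 ± 1.84 CPM in KO and 3.36 ± 0.414 CPM in WT (SD, n = 3 each), and the log2 fold change of 0.01 (SE 0.42, edgeR adjusted p = 0.985) had no stable sign and was -0.52 without KO replicate 1 (adjusted p = 0.0852). Of its 774 windows of 50 bases, 289 (37.3%) also occur in other genes. One is the pseudogene Fabp3-ps1, which had 0 to 3 counts per library, and the others are Zcchc17 and Gm10570, whose exons it meets on the opposite strand. The strand setting of the counting is not given in the sources used here.

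Levels per kilobase of the principal transcript allow the 3 carriers to be set side by side. Their sum was 384, 111 and 117 CPM per kb in KO and 77.0, 67.2 and 74.0 CPM per kb in WT. Fabp5 was the most abundant in every library, with 66.4%, 88.9% and 82.0% of the sum in KO and 80.9%, 86.7% and 81.3% in WT. Fabp4 made up 31.8%, 8.62% and 15.5% in KO and 13.8%, 7.93% and 12.5% in WT, so that its large share was seen in KO replicate 1 and not in the other KO libraries. Fabp3 made up 1.75% to 2.52% of the sum in KO and 5.26% to 6.21% in WT.

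**Figure D3:**
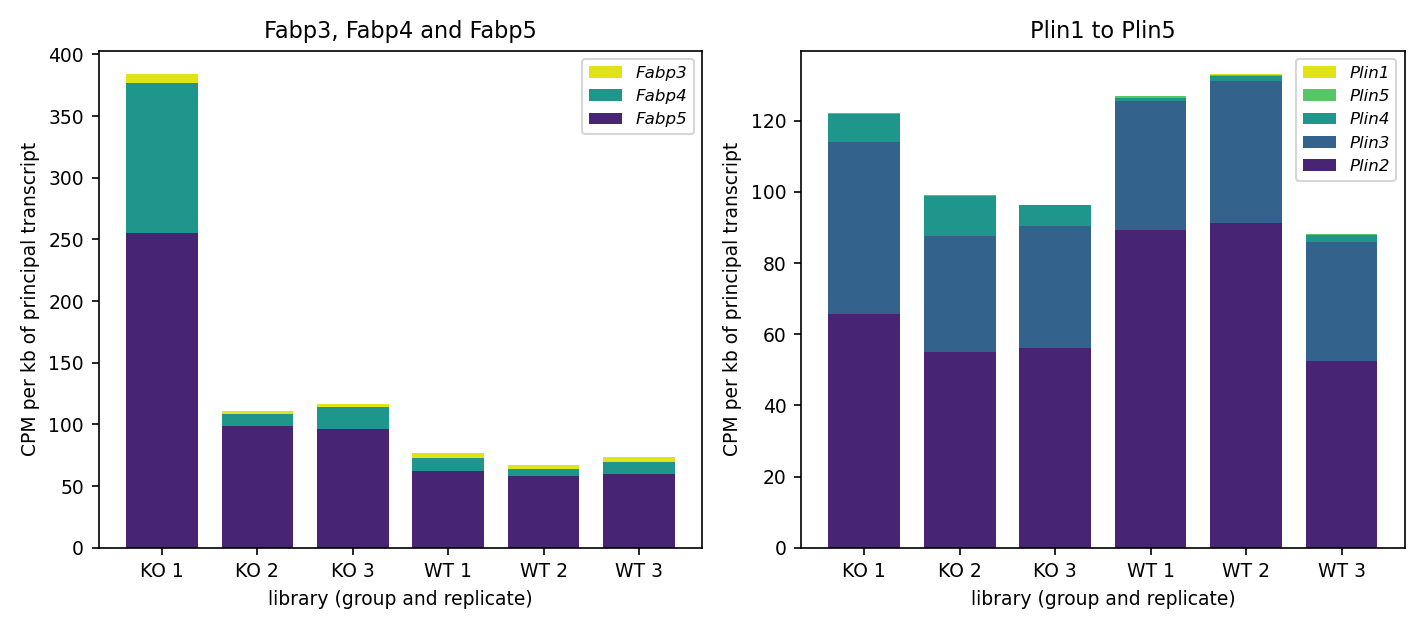
Summed level, in CPM per kb of principal transcript, of Fabp3, Fabp4 and Fabp5 (left) and of Plin1 to Plin5 (right) in each of the 3 KO and 3 WT libraries, with each gene as a segment of the bar. The fatty acid binding protein sum is highest in KO replicate 1 at 384 CPM per kb, whereas the perilipin sums of the genotypes overlap and Plin4 is a visible segment mainly in KO.

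Among the perilipins, Plin4 rose. Plin4 (ENSMUSG00000002831, chr17:56100591-56109803, minus strand) had 46.3, 65.1 and 34.0 CPM in KO and 4.59, 8.55 and 11.1 CPM in WT. The lowest KO library lay above the highest WT library, and here KO replicate 2, not replicate 1, was the highest. Means were 48.5 ± 15.7 CPM in KO and 8.08 ± 3.29 CPM in WT (SD, n = 3 each), a log2 fold change of 2.59 (SE 0.46, edgeR adjusted p = 0.00215), or 6.00-fold higher in KO. It was called under all 14 alternatives run, which gave log2 fold changes of 2.30 to 2.88, and without KO replicate 1 it was 2.62. The Plin4 transcript shares no 50-base window with another gene but repeats within itself: 5100 of its 5707 windows are distinct. Its annotated exons meet those of Hdgfl2 on the opposite strand over 17 bases, and Hdgfl2 had 128 to 138 CPM in KO and 134 to 140 CPM in WT.

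Plin2 (ENSMUSG00000028494, chr4:86648386-86670060, minus strand), the general droplet coat of non-fat cells, had 124, 104 and 106 CPM in KO and 168, 172 and 99.3 CPM in WT. WT replicate 3 lay below all KO libraries and the other WT libraries above all of them. Means were 111 ± 11.2 CPM in KO and 147 ± 40.9 CPM in WT (SD, n = 3 each), and the log2 fold change of -0.39 (SE 0.27, edgeR adjusted p = 0.203) did not pass the test. Without WT replicate 3 it was -0.61 and was called lower in KO (edgeR adjusted p = 0.0274). With libraries scaled to their totals, which shifted the median of all genes by -0.203 log2, it was -0.60 and not called (adjusted p = 0.0532).

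Plin3 (ENSMUSG00000024197, chr17:56277476-56292873, minus strand), a coat protein that moves from the cytosol onto new droplets, had 177, 119 and 125 CPM in KO and 132, 146 and 121 CPM in WT. Apart from KO replicate 1 the libraries of both genotypes were interleaved. Means were 140 ± 31.8 CPM in KO and 133 ± 12.5 CPM in WT (SD, n = 3 each), and the log2 fold change was 0.07 (SE 0.20, edgeR adjusted p = 0.782). Its sign turned without KO replicate 1 (-0.13) and with library totals (-0.14).

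**Figure D4:**
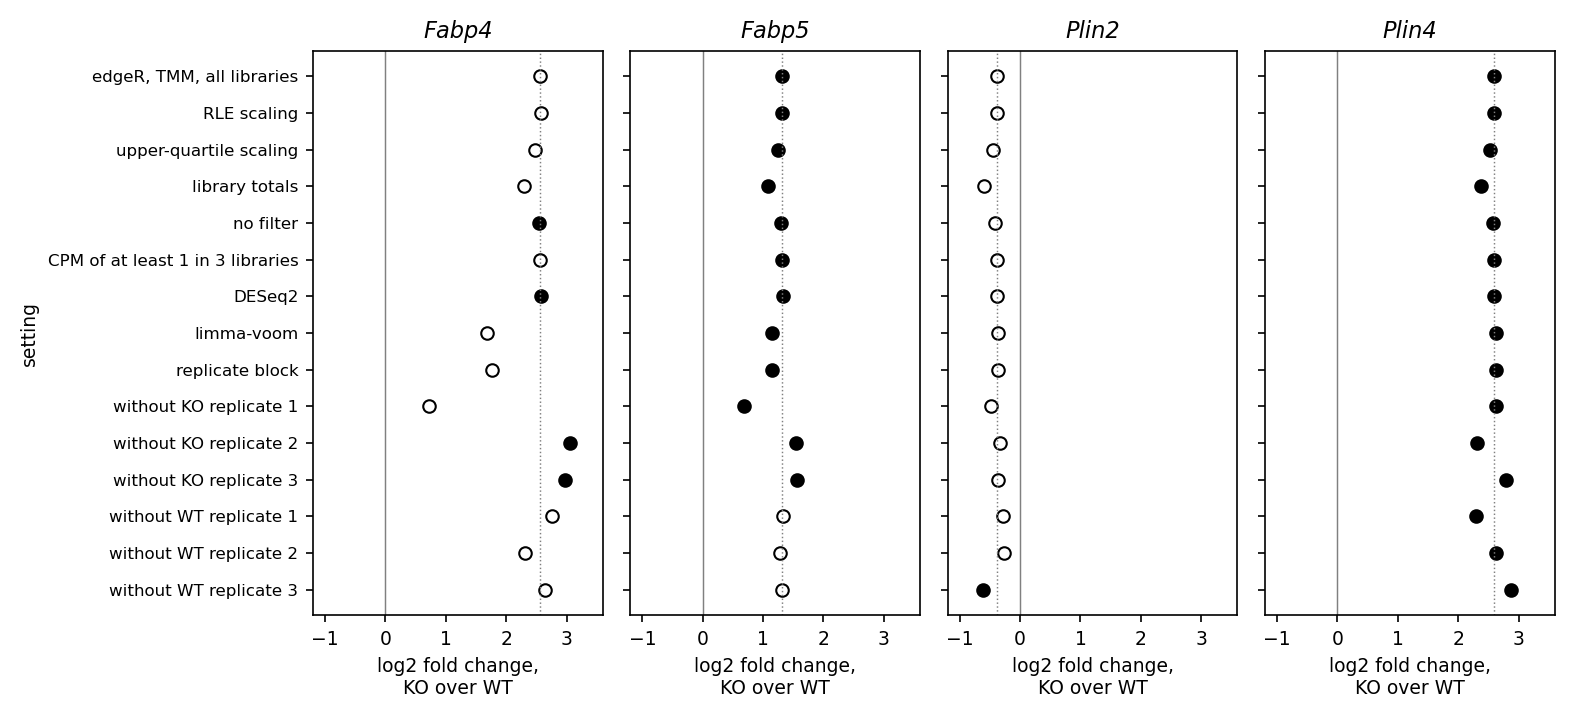
Log2 fold change, KO over WT, of Fabp4, Fabp5, Plin2 and Plin4 under the edgeR fit and each of 14 alternatives; filled points are called at adjusted p below 0.05 and the dotted line is the edgeR value with all libraries. Plin4 is filled throughout, Fabp5 is open with any 1 WT library left out, and Fabp4 moves to 0.72 without KO replicate 1.

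Per kilobase, the perilipins Plin1 to Plin5 summed to 122, 99.1 and 96.3 CPM per kb in KO and 127, 133 and 88.1 CPM per kb in WT, and the ranges overlapped. Plin2 and Plin3 made up most of the sum in all libraries, Plin2 with 53.8% to 58.3% in KO and 59.7% to 70.3% in WT, and Plin3 with 32.8% to 39.6% in KO and 28.6% to 37.7% in WT. Plin4 supplied 6.57%, 11.4% and 6.14% in KO and 0.629%, 1.12% and 2.19% in WT. The Plin4 share did not overlap between genotypes, and Plin4 remained the smallest of the 3 well-detected members in both genotypes. The ratio of Plin4 to Plin2, per kb, was 0.122, 0.205 and 0.105 in KO and 0.00895, 0.0163 and 0.0367 in WT.

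Plin4 and Plin3 lie on chromosome 17 with Plin5 between them, its first coordinate 11.0 kb from that of Plin4. Plin5, the perilipin of oxidative tissues, had 2, 7 and 0 counts in KO and 30, 20 and 19 in WT, a log2 fold change of -2.93 (SE 0.63, edgeR adjusted p = 0.0221), opposite in direction to its neighbour. Leaving out KO replicate 2 gave a log2 fold change of -4.35 and leaving out KO replicate 3 gave -2.30, and the call was lost when any 1 WT library was left out (adjusted p = 0.0623 to 0.0836). Of the 13 genes from Hdgfl2 to Plin3, 11 could be tested. Of these, 2 were higher in KO, Plin4 among them, 3 were lower, Plin5 among them, and 6 were not called. Over all tested genes, 13.8% were higher and 14.5% lower in KO. On chromosome 3, Fabp5 and Fabp4 bound a stretch of 196.0 kb with 8 annotated genes, of which only these 2 had enough counts to be tested.

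Start-site sequence was available from RefSeq (GRCm38.p6) for 8 of the 10 genes, not for Fabp4 or Fabp5, as 250 bases before to 50 bases after the start. Plin4 and Plin2 are shown because they are the perilipin that rose and the most abundant one that did not pass the test.
Plin4, chr17:56109733-56110032, minus strand: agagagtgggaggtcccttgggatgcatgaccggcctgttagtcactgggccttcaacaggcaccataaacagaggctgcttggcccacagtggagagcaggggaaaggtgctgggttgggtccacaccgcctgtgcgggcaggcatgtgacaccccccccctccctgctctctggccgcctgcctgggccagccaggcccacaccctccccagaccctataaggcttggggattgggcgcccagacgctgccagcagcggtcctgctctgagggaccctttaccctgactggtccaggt
Plin2, chr4:86670010-86670309, minus strand: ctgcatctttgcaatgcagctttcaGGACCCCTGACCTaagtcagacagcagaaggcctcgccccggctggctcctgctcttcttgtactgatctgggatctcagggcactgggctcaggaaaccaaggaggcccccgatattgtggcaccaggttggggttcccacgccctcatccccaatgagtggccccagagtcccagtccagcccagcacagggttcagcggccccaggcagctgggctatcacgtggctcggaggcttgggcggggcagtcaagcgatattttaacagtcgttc
The sequences were searched on both strands for AGGTCA, the nuclear receptor half-site, for AGGTCANAGGTCA with up to 2 mismatches, the direct repeat bound by PPAR and RXR, for AGAACA, the glucocorticoid receptor half-site, and for the CArG box of serum response factor. Capitals mark the only matches among the 8 genes, in Plin2: GGACCCCTGACCT, a repeat match on the minus strand whose first base is at -225, with the half-site TGACCT inside it at -218. Of 32544 mouse promoters of the same length, 16.2% hold AGGTCA, 3.87% the repeat, 18.9% AGAACA and 1.64% a CArG box. A match is a description of letters, and its absence from this window says nothing about binding elsewhere.

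The products most specific to mature fat cells were scarce, on a scale where 3 counts correspond to 0.0816 to 0.113 CPM by library. Plin1 (chr7:79720218-79732903), which guards the droplet of the mature adipocyte, had 1, 2 and 3 counts in KO and 2, 2 and 1 in WT. Adipoq (chr16:23146536-23158028) had 1, 0 and 0 counts in KO and 0 in each WT library. Cidec (chr6:113424634-113435760), which fuses droplets into a single large one, had 0, 3 and 45 counts in KO and 0 in each WT library. All but 3 of the Cidec counts thus came from KO replicate 3, at 1.22 CPM, and not from the library with high Fabp4. Retn (chr8:3655770-3660110) had 10, 8 and 21 counts in KO and 19, 6 and 6 in WT, which is 0.237 to 0.571 CPM in KO and 0.189 to 0.597 CPM in WT. None of these 4 passed the filter on low counts; when it was removed, Cidec was called (edgeR adjusted p = 0.0272) while Plin1 (0.938), Adipoq (0.532) and Retn (0.806) were not. Plin1 and Adipoq had at most 3 counts per library in both genotypes, where a small difference cannot be seen.

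Set in order of mean level per kb, the KO libraries had Fabp5 first (150 ± 91.0 CPM per kb), then Plin2 (59.0 ± 5.93), Fabp4 (50 ± 62.7), Plin3 (38.4 ± 8.73), Plin4 (8.42 ± 2.72) and Fabp3 (4.13 ± 2.23). In WT the order by mean level per kb was Plin2 (77.6 ± 21.7), Fabp5 (60.3 ± 2.01), Plin3 (36.5 ± 3.44), Fabp4 (8.42 ± 2.77), Fabp3 (4.08 ± 0.504) and Plin4 (1.40 ± 0.571). In KO the ranges of mean ± SD of Fabp5 and Plin2 met, and those of Plin4 and Fabp3 overlapped. That of Fabp4 met Fabp5 and covered Plin2, Plin3, Plin4 and Fabp3, so the place of Fabp4 in the KO order is not settled. In WT the ranges of Plin2 and Fabp5 overlapped and the other neighbours were apart. Retn followed at 0.452 ± 0.192 CPM per kb in KO and 0.377 ± 0.265 in WT. Library by library, Plin4 lay above Fabp3 in all 3 KO libraries and below it in all 3 WT libraries, and Fabp5 lay above Plin2 in all 3 KO libraries and in WT replicate 3.

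Other genes of the same families moved in both directions. Of 14 relatives, 6 could be tested, and 2 were higher, 3 lower and 1 not called. Fabp7, the brain fatty acid carrier, averaged 5.87 ± 2.00 CPM in KO and 1.13 ± 0.565 CPM in WT (log2 2.37, edgeR adjusted p = 0.00759). Crabp2, which carries retinoic acid to its receptor, averaged 2.36 ± 1.39 CPM in KO and 0.611 ± 0.016 CPM in WT (log2 1.93, edgeR adjusted p = 0.0185). Both relatives of Cidec were scarce. Cideb, a CIDE protein of liver, had 2, 5 and 5 counts in KO and 12, 25 and 17 in WT and was lower in KO (log2 -2.21, edgeR adjusted p = 0.0108), though 76.3% of its exon length lies opposite exons of Nop9. Cidea, its counterpart in brown fat, had 0 counts in KO and 1, 1 and 0 in WT. Called relatives numbered 3, 2 and 3 without WT replicate 1, 2 and 3, and 3 when a CPM of at least 1 in 3 libraries was required; Crabp2 was no longer called when any 1 WT library was left out (adjusted p = 0.0711 to 0.0738) and Cideb without WT replicate 2 (0.0531).

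**Figure D5:**
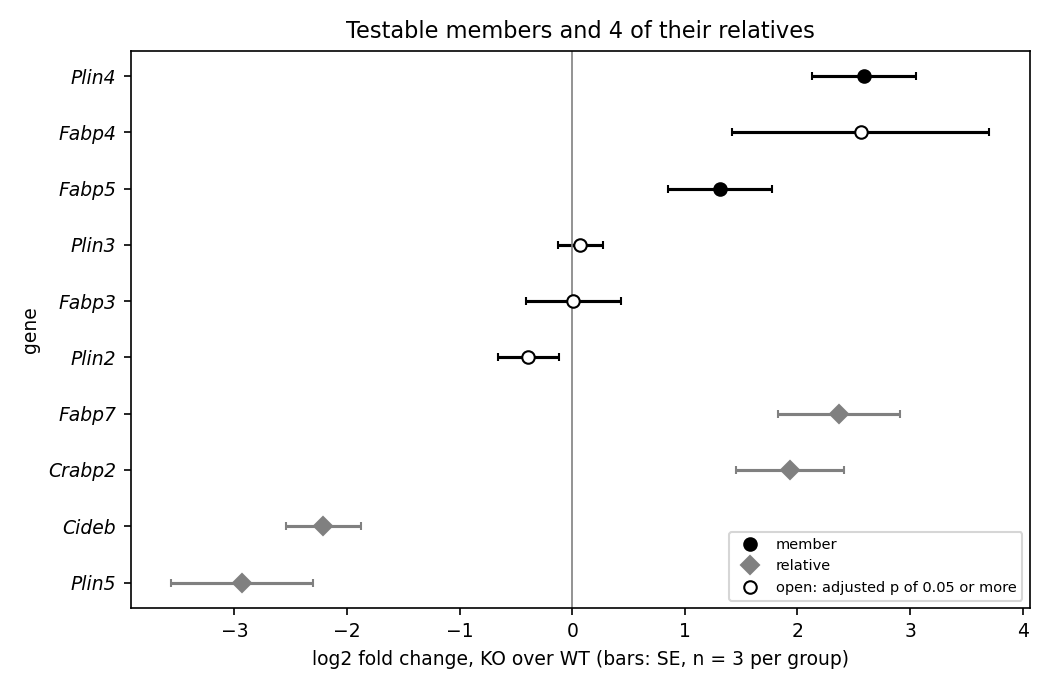
Log2 fold change, KO over WT, of the 6 testable genes (black circles) and of 4 relatives in their families (grey diamonds), with bars of 1 SE (n = 3 libraries per group); filled symbols are called at adjusted p below 0.05. Plin4 at 2.59 and Fabp5 at 1.31 are the filled circles, and Plin5 at -2.93 is the lowest of the relatives drawn.

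Genes that build and break down droplets moved in both directions. Of 45 listed, 39 could be tested, with 9 higher (23.1%), 6 lower (15.4%) and 24 not called, against 13.8% higher and 14.5% lower over all tested genes, and a median log2 fold change of 0.23. Among those lower in KO, Lipe, for hormone-sensitive lipase, averaged 7.14 ± 0.326 CPM in KO and 27.4 ± 1.32 CPM in WT (log2 -1.94, edgeR adjusted p = 0.000137). Bscl2, for seipin, which shapes budding droplets, averaged 11.4 ± 1.04 CPM in KO and 35.6 ± 4.65 CPM in WT (log2 -1.64, edgeR adjusted p = 0.000407). Abhd5, the co-activator of adipose triglyceride lipase that perilipins hold back, fell by 0.59 log2, and Soat2, a cholesterol esterifying enzyme, fell by 3.35 log2. Among those higher in KO, Cav1, for the membrane protein caveolin that is also found on droplets, averaged 275 ± 95.1 CPM in KO and 79.4 ± 2.76 CPM in WT (log2 1.79, edgeR adjusted p = 0.00156). Lipa, the lysosomal acid lipase, rose by 0.96 log2, the sterol enzyme gene Hsd17b7 by 1.36 and Clstn3, whose adipose form acts on droplets, by 2.63. Exons of a gene on the opposite strand face 15.95% of the exon length of Abhd5 and 15.6% of that of Lipe. Without KO replicate 1 the list had 24 called genes, and without WT replicate 2 it had 9.

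Among genes of fatty acid uptake, Lpl rose. Lpl, for the lipoprotein lipase that frees fatty acids outside the cell, had 146, 144 and 137 CPM in KO and 2.99, 1.19 and 4.05 CPM in WT (log2 5.70, SE 0.51, edgeR adjusted p = 0.000124). The KO libraries were nearly equal, KO replicate 1 included, unlike in Fabp4 and Fabp5. Cd36, the fatty acid translocase of the membrane, named here after its values were seen, had 13.6, 2.94 and 2.18 CPM in KO and 0.440, 0.817 and 1.18 CPM in WT (log2 2.93, SE 0.89, edgeR adjusted p = 0.0269). Like Fabp4 it was highest in KO replicate 1, but its genotypes did not overlap. The log2 fold change was 1.65 without KO replicate 1, and the call was lost with limma-voom (adjusted p = 0.0597), with the replicate block (0.0894) and when any 1 WT library was left out (0.07 to 0.104). Of 22 listed genes 18 could be tested, with a median log2 fold change of 0.19. The calls were 6 higher (33.3%), 4 lower (22.2%) and 8 not called, against 13.8% higher and 14.5% lower over all tested genes. The enzymes that trap fatty acids as acyl-CoA were split by isoform: Acsl1 and Acsl3 each rose by 0.91 log2, whereas Acsl6 fell by 4.39. The membrane acyl-CoA synthetase Slc27a3 fell by 3.48 log2, and the acyl-CoA thioesterases Acot1 and Acot2 by 5.55 and 1.29. Acot1 had 1, 0 and 3 counts in KO and 39, 107 and 50 in WT, and its log2 fold change was -6.65 without KO replicate 3. Acbd3, an acyl-CoA binding protein of the Golgi, rose by 0.80 log2, or by 0.52 without KO replicate 1. Without WT replicate 2 the list had 5 called genes, with Acsl1 (adjusted p = 0.0536) and Acot2 (0.057) among the lost calls, and Acbd3 was not called when any 1 WT library was left out (0.0738 to 0.098).

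Among 36 adipokines and other secreted products of fat, 18 could be tested, with a median log2 fold change of 0.40. The calls were 6 higher (33.3%), 3 lower (16.7%) and 9 not called, against 13.8% higher and 14.5% lower over all tested genes. Angptl4, which inhibits lipoprotein lipase, had 1, 10 and 13 counts in KO and 3805, 2959 and 2593 in WT (log2 -8.66, SE 0.67, edgeR adjusted p = 3.2e-05). Rbp4, the retinol carrier of plasma, had 0, 1 and 2 counts in KO and 236, 86 and 155 in WT and was called lower in KO (edgeR adjusted p = 0.000427). Ccn5, a matricellular protein of fat, fell by 1.66 log2. The peptide hormone gene Apln rose by 2.55 log2, Metrnl by 1.00 and the adiponectin relative C1qtnf6 by 0.80. Rarres2, for chemerin, rose by 2.87 log2 to 0.422 ± 0.0916 CPM in KO, against 0.0539 ± 0.0196 CPM in WT, but 33.6% of its exon length lies opposite exons of Lrrc61. The resistin relatives Retnla, Retnlb and Retnlg had 0 counts in all 6 libraries.

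The adiponectin receptors were detected in every library. Adipor1, an adiponectin receptor, had 319, 182 and 187 CPM in KO and 163, 171 and 157 CPM in WT, every KO library above every WT library, yet the log2 fold change of 0.49 was not called (SE 0.27, edgeR adjusted p = 0.137), and it was 0.18 without KO replicate 1. Adipor2 averaged 65.1 ± 35.7 CPM in KO and 55.1 ± 4.49 CPM in WT (log2 0.24, edgeR adjusted p = 0.626). Its sign rested on KO replicate 1, without which Adipor2 was -0.31 log2 and called lower in KO (edgeR adjusted p = 0.0337). With library totals it was 0.01 log2 and not called. Appl1, the adaptor that binds both receptors, averaged 52.1 ± 12.4 CPM in KO and 59.8 ± 6.64 CPM in WT (log2 -0.20, edgeR adjusted p = 0.448). Cdh13, for T-cadherin, which binds adiponectin oligomers, averaged 7.66 ± 0.817 CPM in KO and 20.8 ± 3.21 CPM in WT (log2 -1.44, edgeR adjusted p = 0.00132). Both proposed resistin receptors on the list were higher in KO, Tlr4 by 0.86 log2 (edgeR adjusted p = 0.00792) and Cap1 by 1.00 log2 (edgeR adjusted p = 0.00119). Of 11 genes on receptors and adiponectin assembly all could be tested, with a median log2 fold change of 0.32. The calls were 4 higher (36.4%), 1 lower (9.09%) and 6 not called, against 13.8% higher and 14.5% lower over all tested genes. The other called genes of the list were Ero1l, for an oxidase of the endoplasmic reticulum (log2 1.39, or 0.73 without KO replicate 1), and the vesicle coat gene Sec31a (0.55). Neither was called when any 1 WT library was left out (adjusted p = 0.113 to 0.115 and 0.0646 to 0.1). The list had 8 called genes without KO replicate 1 and 3 when any 1 WT library was left out.

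Regulators that act on these genes were split. Pparg, whose product with RXR drives Fabp4, Plin1, Cidec and Adipoq in fat cells, had 30, 27.8 and 21.9 CPM in KO and 13.7, 15.7 and 18.5 CPM in WT (log2 0.73, SE 0.18, edgeR adjusted p = 0.0205), with no overlap. The call was lost with library totals (adjusted p = 0.0628), with the replicate number as a block (0.0671), and without KO replicate 2 (0.0523), WT replicate 1 (0.0813) or WT replicate 2 (0.0845). Cebpa, its partner in mature fat cells, had 2, 13 and 15 counts in KO and 190, 177 and 155 in WT (log2 -4.20, SE 0.58, edgeR adjusted p = 0.000813). Zfp423, which commits preadipocytes, had 0 counts in each KO library and 54, 56 and 40 in WT, at least 17-fold lower in KO at 3 counts per library. Mlxipl, for the glucose-sensing factor ChREBP, fell by 4.89 log2 to 1 or 2 counts per KO library, and Prdm16, the brown fat factor, had 0, 1 and 0 counts in KO and 11, 19 and 11 in WT and was called lower in KO. The coregulators Ncoa1 and Nrip1 rose by 0.61 and 0.59 log2 and lost the call in several settings, library totals among them (adjusted p = 0.108 and 0.114). Of 27 listed regulators 26 could be tested, with a median log2 fold change of 0.05, the same with Zfp423 set at its bound. Of these, 3 were higher (11.5%), 6 lower (23.1%) and 17 not called, against 13.8% higher and 14.5% lower over all tested genes. None was called higher with library totals, with the replicate block, or without WT replicate 1 or 2. Without WT replicate 1 or 2 the list had 5 called genes.

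Patterns over the 6 libraries were compared with those of the testable genes by the root mean square difference of centred log2 CPM. The 11864 candidates were tested genes with a mean of at least 1 CPM. Pseudogenes and genes with a Gm number or a Rik name were left out, so Gm6166 was not a candidate. Closest to Fabp5 were Mipol1 (0.0947), Nampt (0.0991), itself on the list of secreted products, and Klf9 (0.103), all with a high KO replicate 1. Nampt, for example, had 316, 131 and 132 CPM in KO and 75.4, 74.9 and 89.5 CPM in WT. Plin4 was followed less closely, by Cacnb4 (0.188), Npas4 (0.231) and Sema3a (0.261), and Fabp4 less closely still, by Tmod1 (0.479), Lmcd1 (0.523) and BB218582 (0.557). Fabp3 was closest to Enpp5 (0.0858), Srgap3 (0.0913) and Bach1 (0.0940). Plin2 was closest to Mtx1 (0.127), Creg1 (0.127) and Nebl (0.133), and Plin3 to Dcaf15 (0.0254), Ubxn1 (0.0366) and Fam110a (0.0374).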

How the data were processed

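RNA was sequenced from 3 KO and 3 WT libraries with a kit named in the labels as TruSeq RNA Library Prep Kit v2. The authors deposited raw counts per Ensembl gene. Per the submitters' processing notes, the build was GRCm38.p4 and the tools were HTSeq, DESeq2 and TopHat2 2.1.0, with no roles given; the release of the annotation and the strand setting were not found there. Symbols, positions and principal transcript lengths came from GENCODE M21 (GRCm38), which matched 46005 of 46603 identifiers. Counts were tested in R 4.3.3 with edgeR 4.0.16 (filterByExpr by group, TMM scaling, quasi-likelihood F test, group as the only term, adjustment over all 15009 tested genes). CPM are counts per 1000000 in TMM-scaled libraries, SE are of the difference in mean log2 CPM with a prior count of 2, and the fit was tested on simulated counts. SD and SE measure the spread between the libraries of each group, and the limit of 3 counts covers counting error only.

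Named are all 10 genes, up to 4 called genes with the smallest p in each direction from each pathway list, the receptors, and the 3 nearest patterns; 1 gene that this takes is not reported here. The members and lists were chosen with earlier results of these data known. Deviations of KO and WT libraries with equal replicate numbers correlated across genes at -0.101, 0.046 and -0.148. These values gave no sign of pairing, but low correlations cannot show that such libraries were handled apart. Alternatives were 3 scalings, 2 filters, DESeq2 1.42.0, limma-voom 3.58.1, a replicate block and each library left out; adding Gm6166 to Fabp5 was chosen after seeing the data.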

Additional observations from a re-analysis of the deposited data

How the results depend on the processing

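Of the 10 genes, the 2 called higher in KO became 4 with no filter on low counts (Fabp4 and Cidec added) and 3 with DESeq2, and 1 to 3 when 1 library was left out; the 0 called lower became 0 to 1, Plin2 without WT replicate 3. At an unadjusted p below 0.05 none of the 6 was lower, and DESeq2 and limma-voom called none lower. Leaving out 1 library gave 2 to 7 called family relatives (5 with all, 3 with a CPM of at least 1 in 3 libraries), 9 to 24 droplet genes (15 with all), 5 to 13 uptake genes (10), 3 to 8 receptor and assembly genes (5) and 5 to 13 regulators (9); the cause was not tested. Fabp3 turned sign with upper-quartile scaling (-0.06), library totals (-0.21), no filter (-0.001), limma-voom (-0.13) and the replicate block (-0.10), and without KO replicate 1 (-0.52), WT replicate 1 (-0.00041) or WT replicate 2 (-0.08), and was not called in any; leaving out 1 library gave -0.52 to 0.23. Plin3 turned with library totals (-0.14) and without KO replicate 1 (-0.13), and leaving out 1 library gave -0.13 to 0.18. With the replicate block 2 of the 10 genes were called higher, the Fabp5 log2 fold change was 1.15, and 3045 of all genes were called, against 4255; of the named genes it ended the calls of Ero1l (adjusted p = 0.0559), Ncoa1 (0.0998), Nrip1 (0.079), Pparg (0.0671) and Cd36 (0.0894). Over all genes, 6537 were called without KO replicate 1 2643, 2298 and 2825 without WT replicates 1, 2 and 3, and 3806 and 3194 without KO replicates 2 and 3, where fewer libraries enter the fit. With library totals 1351 genes were higher and 3347 lower in KO, against 2074 and 2181. Low counts hide small differences in Plin1 and Adipoq, and the unknown strand setting limits genes that meet others on the opposite strand.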
